A study of Mus musculus with 2 samples.

Results

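CD8 alpha-beta T cells were examined in single-cell RNA-seq libraries from the proximal small intestine of 2 mice. A member was a barcode that held at least 1 UMI of Ptprc, at least 1 UMI over Cd3d, Cd3e and Cd3g, and at least 1 UMI of Cd8b1, with no UMI of Trdc or Cd4 and fewer than 3 UMIs of Mki67 and Top2a together. A UMI is a counted RNA molecule. Members were thus selected on measured UMIs of these 9 genes. The rule gave 891 members of 14898 kept barcodes, 579 in mouse 1 and 312 in mouse 2. Both mice were VilCreER Apc fl/fl (APC) animals. They received 2 intraperitoneal injections of 2 mg tamoxifen 24 h apart and were sampled at day 4. The tamoxifen-activated Cre is driven by the villin promoter, which is active in the intestinal epithelium and not in T cells, so the deletion of Apc is made in epithelial cells around the lymphocytes. No mouse without the deletion was analysed here, and each mouse gave 1 library. The values below therefore describe T cells of APC tissue and carry no genotype contrast.

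CD8 alpha-beta T cells recognise peptides on MHC class I through an alpha-beta T-cell receptor and a co-receptor made of a CD8 alpha and a CD8 beta chain. In the gut many of them live between epithelial cells, held by the integrin CD103 (the product of Itgae) bound to E-cadherin, and carry granzymes and the chemokine CCL5. They share this site with gamma-delta T cells and other so-called natural intraepithelial lymphocytes, which often express a CD8 alpha homodimer and activating receptors coupled to FcR gamma or DAP12. CD8 alpha-beta cells that enter the gut after priming in lymphoid organs are called induced intraepithelial lymphocytes.

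The T-cell receptor V segments that the members of the 2 mice used most are shown first, because they set the mice apart further on. Each is the longest coding exon, or its last 300 bases, in the mouse genome (GRCm38, GENCODE vM21), on the plus strand. Capitals mark the last in-frame cysteine codon, the start of the third complementarity-determining region. Trbv2 lies at chr6:41047701-41047995, Trbv16 at chr6:41151933-41152230 and Trav16 at chr14:53743406-53743705.
Trbv2: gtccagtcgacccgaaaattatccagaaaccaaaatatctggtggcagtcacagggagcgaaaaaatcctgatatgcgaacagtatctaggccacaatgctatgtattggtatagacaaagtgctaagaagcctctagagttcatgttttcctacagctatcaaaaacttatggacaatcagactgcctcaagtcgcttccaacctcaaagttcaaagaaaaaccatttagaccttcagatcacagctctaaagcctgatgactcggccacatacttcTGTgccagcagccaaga
Trbv16: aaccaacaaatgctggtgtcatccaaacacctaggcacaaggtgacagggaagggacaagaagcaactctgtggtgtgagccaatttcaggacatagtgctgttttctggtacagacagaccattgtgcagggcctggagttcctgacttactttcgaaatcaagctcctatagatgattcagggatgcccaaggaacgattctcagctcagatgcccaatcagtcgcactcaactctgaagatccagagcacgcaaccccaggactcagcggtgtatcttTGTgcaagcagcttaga
Trav16: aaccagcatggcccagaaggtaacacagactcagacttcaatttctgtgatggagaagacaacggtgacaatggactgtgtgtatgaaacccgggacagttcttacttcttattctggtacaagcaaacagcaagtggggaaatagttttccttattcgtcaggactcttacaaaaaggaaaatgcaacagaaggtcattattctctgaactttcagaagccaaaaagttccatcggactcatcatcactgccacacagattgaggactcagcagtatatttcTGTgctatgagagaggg
Trbv2 and Trbv16 were identical at 58.2% of aligned positions. Trav16 was 98.7% identical to Trav16n and 98.3% identical to Trav16d-dv11, so reads of these copies may have been split between them.

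The members' sums held 3240655 UMIs in mouse 1 and 1123683 UMIs in mouse 2. The median member had 3335 and 2769 UMIs and 1451 and 1312 genes. Members made up 14.6% (95% exact binomial interval 13.5 to 15.7) of the 3965 kept barcodes with a CD3 UMI in mouse 1 and 5.62% (5.03 to 6.26) of the 5551 in mouse 2. Intervals on counts cover counting error only. The other CD3 barcodes fell mainly into 3 gates under the same Ptprc and cell-cycle limits, each free of Cd8b1. The gamma-delta gate (Trdc present, no Cd4) held 1480 and 3093 barcodes, the CD4 gate (Cd4 present, no Trdc) held 157 and 89, and the gate with neither held 1321 and 1733. The 2 libraries shared 16 kept barcode sequences and no barcode was a member in both, although 3 members of mouse 2 shared their barcode with a kept barcode of mouse 1.

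The CD8 alpha-beta and alpha-beta T-cell marker lists were detected in full, and many markers of other cells were detected too. All 5 of Cd8b1, Cd8a, Cd3e, Cd6 and Themis were detected in both mice. Cd8b1 and Cd3e belong to the rule, and all 5 are marker genes by which these cells were proposed. Their detection is thus no independent evidence. Cd8a, the other co-receptor chain and no part of the rule, was seen in 92.7% of members in mouse 1 and 89.4% in mouse 2. In kept barcodes without any CD3 UMI it was seen in 5.96% and 7.89%, at median depths of 8513.5 and 8008 UMIs. Trbc2, a constant segment of the receptor beta chain, was seen in 91.2% and 90.1% of members and in 5.68% and 4.41% of the barcodes without CD3. It was also seen in 80.3% and 78.1% of gamma-delta gate barcodes, and Cd8a was not called different from that gate. Cd8a and Trbc2 thus set members apart from barcodes without CD3 far more than from the gamma-delta gate. Of 4 gamma-delta markers 3 were detected in members (1088 and 773 UMIs in sum), and Trdc was absent by the rule. Of the CD4 T-cell markers, Cd4 was absent by the rule, Cd40lg was at 0 UMIs in mouse 1 and 3 in mouse 2, and Foxp3 at 1 in mouse 1 and 0 in mouse 2. Zbtb7b, the CD4-lineage factor gene, was seen in 3.11% and 1.92% of members.

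Membership often rested on little RNA. The median member had 2 Cd8b1 UMIs in each mouse, and the highest had 13 and 18. Just inside the threshold, 163 and 120 members had exactly 1 Cd8b1 UMI. Just outside, 18 and 25 barcodes missed membership by 1 Trdc UMI alone, and 29 and 101 by more than that. Cd4 UMIs alone left out 18 and 7 barcodes, cell-cycle UMIs 10 and 2, and the lack of a CD3 UMI 40 and 23.

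RNA of other cells was present in the members' sums. Immunoglobulin transcripts took 22.6% of the members' UMIs in mouse 1 and 7.37% in mouse 2, against 16.6% and 4.13% in the gamma-delta gate and 44.4% and 27.9% in the CD4 gate. The median member held 2.33% and 0.417%, while 45 and 7 members held over 20%. The summed level of 4 pancreatic acinar markers was 3796 CPM (UMIs of a gene or list per 1000000 UMIs of a class in a mouse) in members of mouse 1 and 27.6 in mouse 2. That of 8 epithelial markers was 428 and 169, and that of 6 macrophage markers 347 and 551. It was 300 and 73.0 for 4 B-cell markers, 211 and 8.01 for 5 erythroid markers and 35.2 and 91.7 for 7 NK or innate lymphoid markers. All 4 plasma-cell markers were detected (74405 and 28448 CPM), whereas Col1a1, Col3a1 and Dcn of the 5 stromal markers were at 0 in both mice. The part of this RNA in the comparisons was not tested directly, and each comparison was repeated without the barcodes that held 5 or more UMIs of B-cell, macrophage, dendritic and stromal markers in sum, called mixed barcodes below.

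The first comparison asked which genes set the members apart from all other kept barcodes with a CD3 UMI, of which 4573 of 8625 were gamma-delta gate barcodes. Against these barcodes, 8 of 15 tested genes of the conventional T-cell surface and signalling, Cd6 and Cd5 among them, and 9 of 14 recirculation genes, such as Il7r and Tcf7, were called higher in the members. Of 9 natural intraepithelial-type genes 6 were called lower and 1 higher, and of 13 NK-type receptor genes 5 lower and 2 higher. Folds are log2 differences, members over the others, with their standard error, from sums of raw UMI counts in 2 mice. edgeR's quasi-likelihood test with class as its only term called 1 of 12241 genes (0.00817%) at an adjusted p of 0.05, Cd6, with 627 genes under an unadjusted p of 0.05. Both sums of a mouse come from the same animal and library, so the test was also run with mouse as a replicate block. This blocked edgeR test called 244 genes higher in the members (1.99%) and 527 lower (4.31%). It rests on 1 residual degree of freedom per gene before the spread is shared over genes. Calls below are those of the blocked test unless the class-only test is named. With thinned cells, in which each cell keeps 1000 UMIs, 111 of the 244 higher and 218 of the 527 lower calls remained. Among the genes named below, those of Trac, Cd160, Gzmc, Klra7, P2rx7, Eomes, Zbtb7b, Foxp3, Tigit, Tnfrsf18, Tnf, Ltb, Csf2, Ccr10, Ccr7, S1pr1 and Il18rap were lost.

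**Figure D1:**
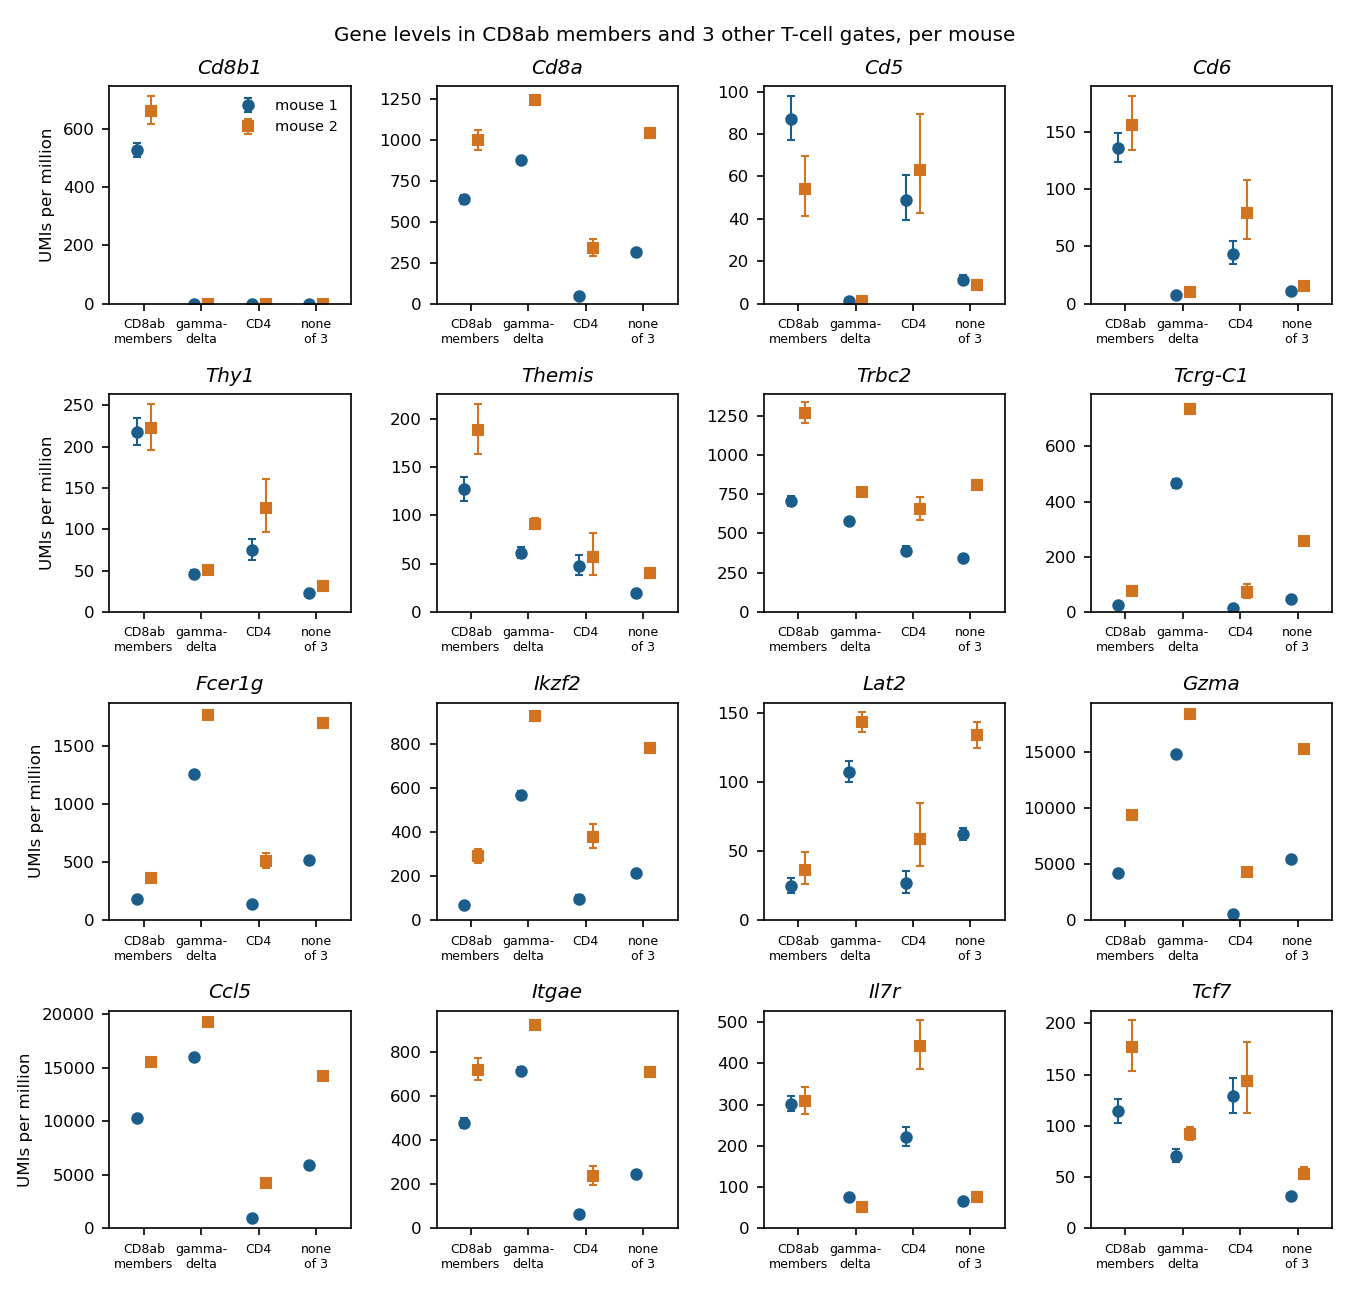
Levels in CPM (linear axes from 0) of 16 genes in the CD8 alpha-beta members, the gamma-delta gate, the CD4 gate and the gate with none of Trdc, Cd4 and Cd8b1, in mouse 1 (circles) and mouse 2 (squares). Bars are exact Poisson 95% intervals of the summed counts. Cd8b1 is fixed by the gates. Cd6 stood at 136 and 157 in the members and at 7.71 and 10.1 in the gamma-delta gate, while Fcer1g stood at 180 and 361 against 1257 and 1765.

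Among receptor genes, Trbc2 and Trac, the constant segments of the beta and alpha chains, were called higher and Tcrg-C1, a gamma-chain constant segment, and Fcer1g were called lower, of 9 genes tested. Trbc2 was at 705 CPM in the members and 349 in the other CD3 barcodes of mouse 1, and at 1268 and 725 in mouse 2. The members were higher within each mouse, yet in CPM the members of mouse 1 lay below the others of mouse 2. CPM values here lack TMM, edgeR's scaling of each sum, which the log2 differences use. The TMM factors of these 2 sums were 0.928 and 1.19. The log2 difference of Trbc2 was 0.80 ± 0.13 (blocked edgeR adjusted p = 9.2e-05). Tcrg-C1 was at 23.8 in members of mouse 1 and 74.8 in mouse 2.

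Of 15 genes of T-cell signalling and the conventional T-cell surface, 8 were called higher and none lower, with a median log2 difference of 1.47 beside -0.02 over all genes tested. The class-only edgeR test called 1 of them, Cd6. All 8 stayed called without the mixed barcodes and with every cell thinned to 1000 UMIs. Cd6, a scavenger-family receptor that binds ALCAM and tunes receptor signalling, was at 136 and 157 CPM in members of the 2 mice and at 10.8 and 14.8 in the other CD3 barcodes, so that both member values lay above both others. Its log2 difference was 3.42 ± 0.20 with class alone (edgeR adjusted p = 0.043). Cd6 and Themis are also marker genes by which these cells were proposed, and their values are no independent evidence. Cd5, an inhibitor of receptor signalling whose level follows signal strength, was at 87.0 and 54.3 in members and 10.3 and 6.50 in the others. The groups did not overlap. The log2 difference was 2.93 ± 0.18 (blocked edgeR adjusted p = 6.0e-12) but the class-only edgeR test gave an adjusted p of 0.50. Thy1, a surface glycoprotein of most mouse T cells, was at 218 and 222 against 31.9 and 45.8 (log2 difference 2.42 ± 0.14). Cd2, Lat, Bcl11b, Themis and Ubash3a were the other 5, with log2 differences from 1.47 for the transcription factor gene Bcl11b to 2.99 for Ubash3a, a gene of a phosphatase that restrains receptor signalling.

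Of 9 tested natural intraepithelial-type genes, 6 were called lower and 1, Cd160, higher, with a median log2 difference of -1.19. Fcer1g, which encodes the FcR gamma adaptor, was at 180 and 361 CPM in members and 595 and 1579 in the others. The members were lower in each mouse (log2 difference -2.04 ± 0.14, blocked edgeR adjusted p = 2.1e-11). Lat2 (-1.71), Tyrobp (-1.19), Il2rb (-1.18), Cd244 (-0.74) and Ikzf2 (-1.78) were the other 5. Ikzf2, the gene of the transcription factor Helios, lost its call without the mixed barcodes and the other 5 kept it. Among 13 tested NK-type receptor genes, Klrd1, Klre1, Klra5, Klra7 and Cd244 were called lower and Klrk1 and Cd160 higher. Without the mixed barcodes Klrd1 lost its call. Klra5, of the Ly49 family, was at 7.41 and 27.6 in members against 88.0 and 237 in the others, a log2 difference of -3.43 ± 0.19.

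Few cytotoxic genes were called. Of 14 effectors, none was called higher and Gzma and Gzmc were called lower, with a median log2 difference of 0.02. Gzma, a granule serine protease gene, was at 4244 and 9346 CPM in members (log2 difference -0.80 ± 0.11). Ccl5, a chemokine gene of effector T cells, was seen in 96.4% and 96.8% of members, against 45.4% and 33.0% of the deeper barcodes without CD3. Its log2 difference was 0.14 ± 0.11 (blocked edgeR adjusted p = 0.62). Of 16 tested residency genes, only P2rx7 and Ccr9 were called, both higher. Ccr9, the receptor for the small-intestinal chemokine CCL25, was at 283 and 451 in members (log2 difference 0.52 ± 0.14, blocked edgeR adjusted p = 0.021).

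Of 14 genes of naive and recirculating T cells the blocked test called 9, all higher than in the other CD3 barcodes, with a median log2 difference of 0.79. All 9 stayed called without the mixed barcodes and 4 of them (Klf3, Lef1, Tcf7, Il7r) with thinned cells. Il7r, the receptor gene for the survival cytokine IL-7, was at 302 and 310 CPM in members and 71.4 and 71.7 in the others. Its 2 groups did not overlap, and the log2 difference was 1.98 ± 0.14 (blocked edgeR adjusted p = 8.7e-11). Tcf7, which encodes TCF1, was at 114 and 177 in members (log2 difference 1.17 ± 0.13). The remaining 5 were Ccr7, S1pr1, Satb1, Dapl1 and Actn1, and their levels were low, with Ccr7 at 16.0 and 8.01.

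Of 20 transcription factor genes, Eomes and Rora were called higher and Ikzf2, Maf, Zbtb7b and Foxp3 lower. Rora, which encodes an orphan nuclear receptor, was at 73.4 and 113 CPM in members and 24.3 and 43.1 in the others (log2 difference 1.38 ± 0.15). Zbtb7b and Foxp3 mark CD4 lineages, which the rule leaves out. Of 16 inhibitory and costimulatory receptor genes, Cd226 was called higher, and Lag3, Tigit, Cd200r1, Tnfrsf4, Tnfrsf9 and Tnfrsf18 lower. Cd200r1 lost its call without the mixed barcodes. Cd226, the gene of the activating receptor DNAM-1, was at 127 and 150 against 28.1 and 45.1 (1.85 ± 0.14), and Lag3, an inhibitory receptor gene, at 13.9 and 37.4 against 63.5 and 130 (-2.12 ± 0.18). Of 20 chemokine receptor and integrin genes, 6 were called higher (Ccr9, Ccr7, Cxcr3, Itgal, S1pr1 and Gpr18) and Ccr10 lower. Ccr10, a receptor of plasma cells among others, lost its call without the mixed barcodes. Of 12 tested cytokine genes Tnf and Ltb were called higher and Csf2 and Fgl2 lower. Tnf was at 17.3 in members of mouse 1 and 1.78 in mouse 2, and in mouse 2 alone its log2 difference was -0.18. Of 17 cytokine receptor genes Il7r and Il18rap were called higher and Il2rb lower.

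Outside the lists, the named-gene rule added Ms4a4b, Ntrk3, Dzip1 and St8sia1 on the higher side. Ms4a4b, a membrane protein gene of T cells, was at 361 and 383 CPM in members and 49.5 and 54.2 in the others (log2 difference 2.73 ± 0.15, blocked edgeR adjusted p = 3.3e-13). The 10 genes ranked lowest were all at 0 UMIs in the members, so that only bounds can be given. P4ha2, a collagen prolyl hydroxylase gene, was at least 5.95-fold lower and Csf2, the gene of GM-CSF, at least 2.62-fold lower, taking a floor of 3 UMIs over both mice. Ccnb1, Esco2, Aurka and Bub1 among the 10 are cell-cycle genes. The rule leaves out cycling barcodes, so it fixes part of their direction and that of the 5 of 14 tested S and G2M genes that were called lower (Rrm2, Stmn1, Birc5, Ccnb1 and Ccnb2). All 5 lost the call with thinned cells, and Rrm2 also without the mixed barcodes. In the same list 1 gene, Tubb5, was called higher, and it kept its call in both settings.

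The second comparison set the members against the gamma-delta gate, the most numerous intraepithelial class here. It shares the members' sums with the first. The 4 gates were fitted together. With class alone edgeR called 15 of 11331 genes (0.132%), 9 higher and 6 lower, with 897 genes under an unadjusted p of 0.05, and with the replicate block 281 were called higher (2.48%) and 277 lower (2.44%). Cd5 and Cd6 ranked first on the higher side in both fits, and Clnk, Itgad, Myo1e and Itih5 led the class-only lower calls. The lowest blocked calls were P4ha2, Lrrc9, Cnih3 and Csf2, all at 0 UMIs in members and at least 11.3-fold, 8.96-fold, 8.27-fold and 4.61-fold lower by the floor of 3 UMIs. Klrb1 (-5.12) and Bend7 (-4.72), each with UMIs in 0 and 2 members of the 2 mice, followed. Csf2 lost its call without the mixed barcodes and with thinned cells. Without the mixed barcodes 197 of the 281 higher and 268 of the 277 lower calls remained. With thinned cells 143 of the higher and 180 of the lower calls remained.

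Cd5 was at 87.0 and 54.3 CPM in members and at 1.26 and 1.11 in the gamma-delta gate, where 0.541% and 0.291% of barcodes had a UMI of it. The member values exceeded the gamma-delta values more than 10-fold in each mouse. The log2 difference was 6.11 with class alone (edgeR adjusted p = 0.013). Cd6 was at 136 and 157 against 7.71 and 10.1 (4.21, class-only edgeR adjusted p = 0.00059). Of the 15 signalling and surface genes, the class-only test called 4 higher (Cd5, Cd6, Thy1 and Ubash3a) and the blocked test 8 higher and 1, Zap70, lower. Zap70, the receptor-proximal kinase gene, was at 74.4 and 124 in members and 157 and 222 in the gamma-delta gate. All 9 of these blocked calls stayed without the mixed barcodes and with thinned cells.

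**Figure D2:**
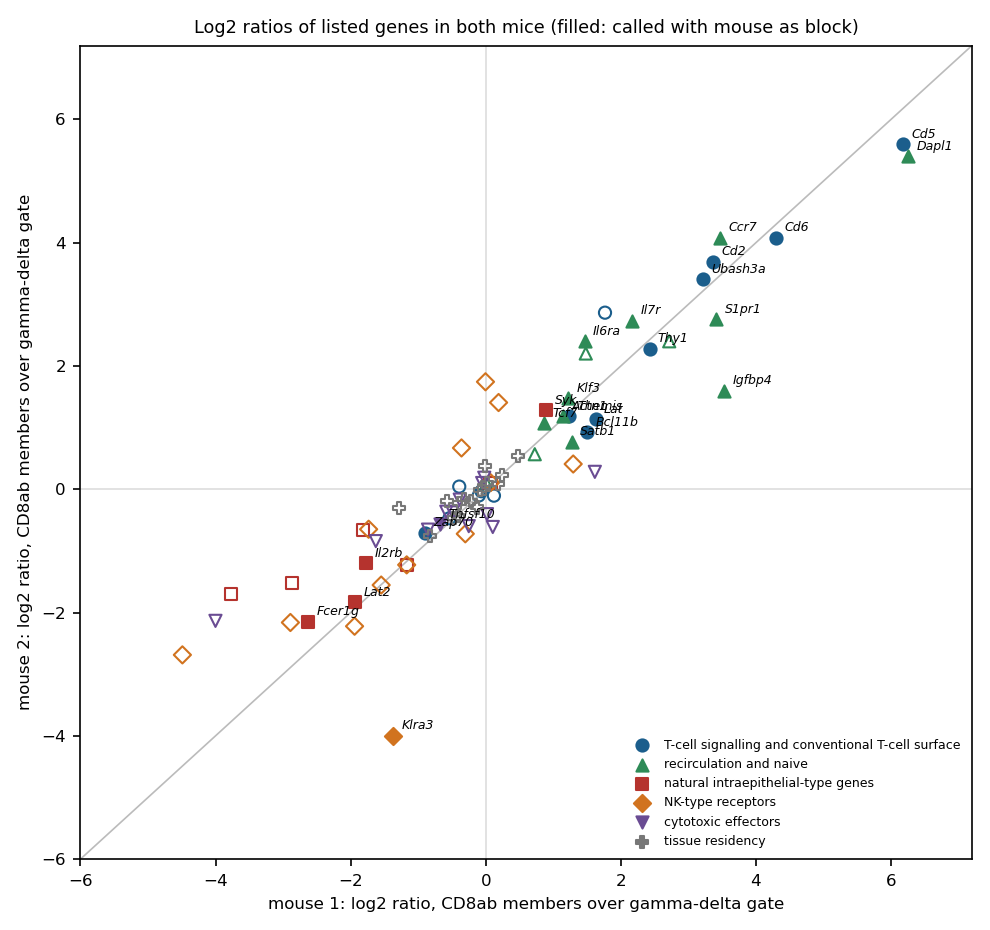
Log2 ratios of members over the gamma-delta gate in mouse 1 (horizontal) and mouse 2 (vertical) for the genes of 6 lists, marked by colour and shape. Filled marks were called by the blocked edgeR test and are named, open marks were not, and the diagonal marks equal ratios. Cd5 and Dapl1 lie farthest up in both mice, and most residency genes lie near 0.

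Clnk, which encodes an adaptor of immunoreceptor signalling, was at 4.94 and 6.23 CPM in members and 69.0 and 67.0 in the gamma-delta gate (log2 difference -3.46, class-only edgeR adjusted p = 0.010). Itgad, an integrin alpha gene, was at 4.63 and 9.79 against 60.9 and 68.3. Myo1e, an unconventional myosin gene, was at 7.41 and 9.79 against 65.4 and 65.4. For each of these genes both member values lay below both gamma-delta values. Lat2, an adaptor gene also called NTAL, was at 24.7 and 36.5 against 107 and 143 (-1.89, class-only edgeR adjusted p = 0.048). On the higher side, Sh2d1a, which encodes the SLAM adaptor SAP, was at 25.9 and 37.4 in members and 5.19 and 7.66 in the gamma-delta gate (2.44 ± 0.25, class-only edgeR adjusted p = 0.015).

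Of 9 tested natural intraepithelial-type genes, Fcer1g, Lat2 and Il2rb were called lower by the blocked test and Syk higher. Fcer1g and Syk lost the call without the mixed barcodes. Ikzf2 was at 68.5 and 292 CPM in members against 569 and 926 in the gamma-delta gate (log2 difference -2.21 ± 0.37, blocked edgeR adjusted p = 0.058). Of 14 recirculation genes, 10 were called higher and none lower, with a median log2 difference of 1.76. Igfbp4 and Il6ra were called here beside Ccr7, S1pr1, Klf3, Tcf7, Il7r, Satb1, Dapl1 and Actn1. Without the mixed barcodes 9 of the 10 stayed called, all but Satb1, and with thinned cells 5. None of 16 tested residency genes was called. Itgae was at 477 and 721 in members against 714 and 924 (blocked edgeR adjusted p = 0.69), and Cd8a at 638 and 998 against 874 and 1245 (blocked edgeR adjusted p = 0.91). Of 13 tested cytotoxic genes 1, Tnfsf10, was called, lower by 0.62. Among 13 tested NK-type receptor genes 1, Klra3, was called, lower, with a list median log2 difference of -1.18. None of the NK-type genes called in the first comparison was called here. Of 16 inhibitory and costimulatory genes Cd226 was called higher, and Lag3, Tigit, Tnfrsf9 and Tnfrsf18 lower. Eomes and Rora were called higher and Tox lower among 20 transcription factor genes. With thinned cells the calls of Syk, Tigit, Tnfrsf18 and Eomes were lost.

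In the third comparison the members were set against the CD4 gate, the other alpha-beta class, which held 157 and 89 barcodes. Gzmb, Prf1 and Tnfsf10 of 13 tested cytotoxic genes were called higher in members, and the CD4-lineage and regulatory factor genes Zbtb7b and Foxp3 lower. The gates separate these classes by Cd4 and Cd8b1. They thus fix part of the direction of lineage genes such as Foxp3, Zbtb7b, Cd40lg and Runx3. With class alone edgeR called 1 of 11331 genes (0.00883%), Foxp3, with 1120 genes under an unadjusted p of 0.05. The blocked test called 208 higher (1.84%) and 325 lower (2.87%).

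Foxp3, the regulatory T-cell factor gene, was at 0.309 and 0 CPM in members and 24.5 and 56.8 in the CD4 gate (log2 difference -7.57, class-only edgeR adjusted p = 0.027). Only 1 member UMI was seen. Gzmb, the granzyme B gene, was at 557 and 821 against 98.2 and 258 (1.67 ± 0.21, blocked edgeR adjusted p = 0.0045). Members of each mouse lay above both CD4 values. Runx3, the factor gene of the CD8 lineage, was at 381 and 573 against 81.1 and 239 (1.34 ± 0.21), and Zbtb7b, which encodes its CD4-lineage counterpart ThPOK, was at 5.86 and 5.34 against 22.3 and 16.2 (-2.31 ± 0.36). Of 16 inhibitory and costimulatory genes 7 were called lower (Pdcd1, Icos, Tnfrsf4, Tnfrsf9, Tnfrsf18, Cd40lg and Lilrb4a) and Cd226 higher. Il17a and Il10 were at 0 UMIs in members, at least 123-fold and 15.6-fold lower than in the CD4 gate by the 3-UMI floor. Cdh1, the E-cadherin gene, was at 44.4 and 61.4 against 2.28 and 18.3 (2.54 ± 0.44), and Gpr18, a lipid-receptor gene of intraepithelial T cells, was at 110 and 119 against 14.3 and 28.4 (2.15 ± 0.25). Cdh1 is also among the epithelial markers, which the definition of mixed barcodes does not use. The part of epithelial RNA in its level was not tested. Among genes named by rank, Scin, the gene of an actin-severing protein, was at 28.1 and 65.9 in members against 1.14 and 6.08 (3.59 ± 0.45), and Gpr183, an oxysterol receptor gene, was at 15.1 and 16.0 against 69.1 and 69.0 (-2.64 ± 0.37). P2rx7, Runx3 and Jaml were called higher of 16 tested residency genes. The 5 signalling genes called higher (Cd6, Thy1, Themis, Lck and Lat) all lost the call without the mixed barcodes, a setting in which 104 of the 208 higher and 115 of the 325 lower calls remained. The calls of Jaml, Icos and Trbc2 were also lost in it. With thinned cells 39 of the 208 higher and 68 of the 325 lower calls remained, and those of Prf1, Zbtb7b, P2rx7, Pdcd1, Lilrb4a and Il10 were among the lost, as were Cd6, Thy1, Lck, Lat and Trbc2. Of 14 recirculation genes none was called higher than in the CD4 gate and Satb1 and Igfbp4 were called lower, with a median log2 difference of -0.72. Satb1, a chromatin organiser gene, was at 43.8 and 39.2 CPM in members against 80.5 and 71.0, and both calls stayed in each of these settings.

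Variation among the members was examined by splitting them on Itgae, which the rule did not use. A UMI of Itgae was seen in 479 of 579 members (82.7%) in mouse 1 and 271 of 312 (86.9%) in mouse 2, and in 5.63% and 6.54% of the kept barcodes without CD3. With cells thinned to 1000 UMIs, which left out 3 and 4 members, the shares were 45.1% and 53.9%, so part of the Itgae-zero class may hold the RNA unseen. Members with Itgae had more Ccl5 and granzyme RNA. Those without had more RNA of lymph-node homing and egress genes.

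Ccr7, the gene of a receptor for lymph-node homing, was at 9.14 and 2.04 CPM in members with Itgae and at 45.5 and 48.7 in members without. S1pr1, the egress receptor gene, was at 4.19 and 9.18 against 91.0 and 83.5. Lef1, a factor gene of naive T cells, was at 13.7 and 29.6 against 128 and 153. For each of the 3 genes both values with Itgae lay below both without. With class alone edgeR called 3 of 7169 genes (0.0418%), with 393 under an unadjusted p of 0.05. They were S1pr1 (log2 difference -4.09 ± 0.40, adjusted p = 0.021), Lef1 (-2.97 ± 0.33, edgeR adjusted p = 0.042) and Ccl5 (1.01 ± 0.08, edgeR adjusted p = 0.012). The blocked test called 52 higher (0.725%) and 132 lower (1.84%) in the members with Itgae. Without the mixed barcodes 19 of the 52 higher and 55 of the 132 lower calls remained. With thinned cells 5 of the higher and 47 of the lower calls remained.

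**Figure D3:**
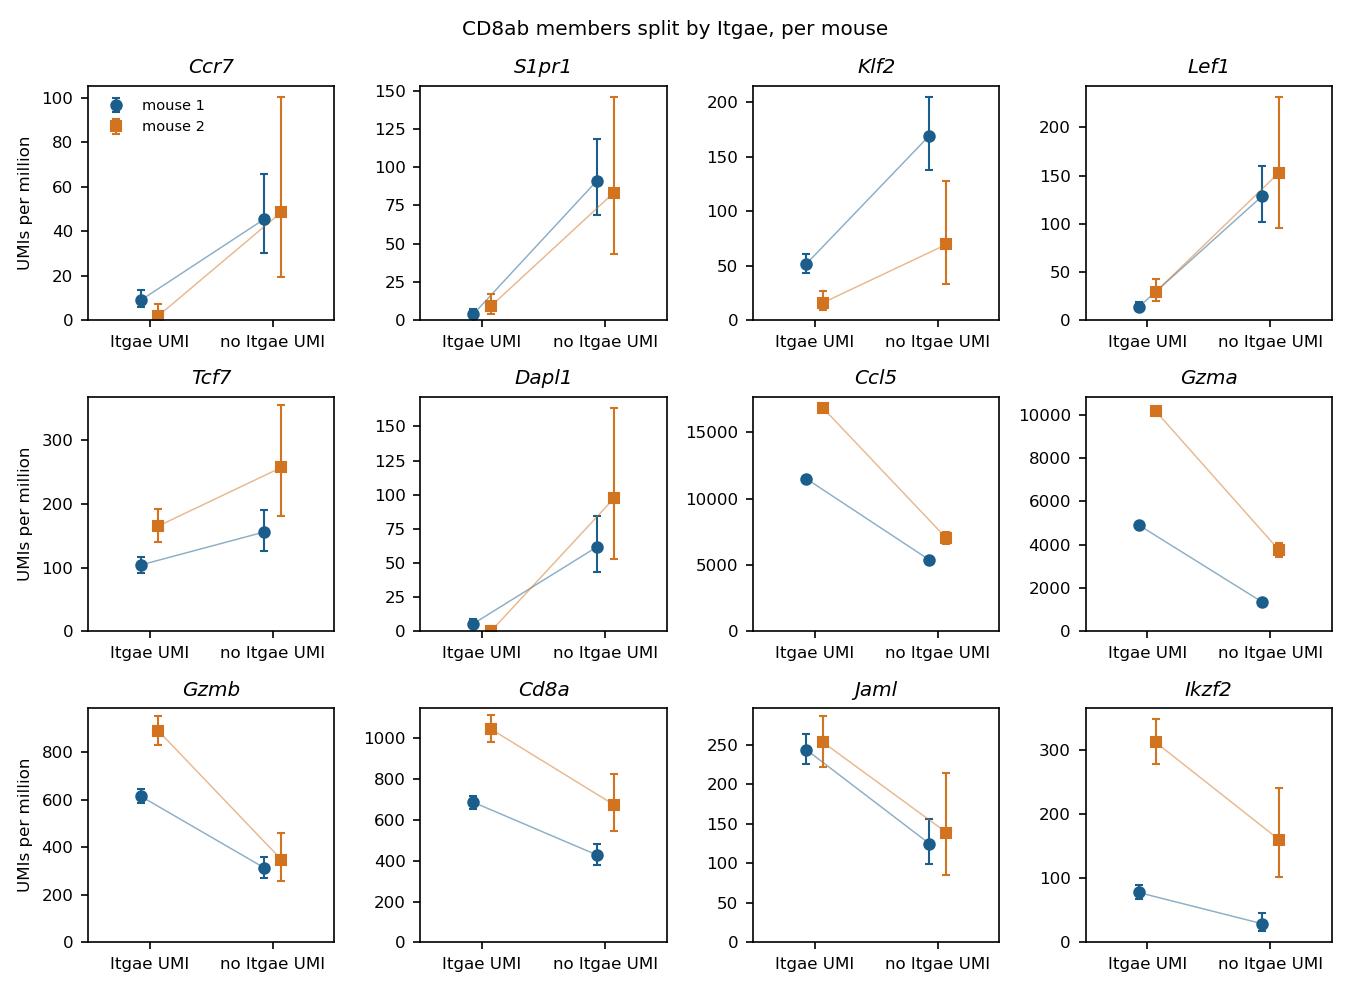
Levels in CPM (linear axes from 0) of 12 genes in CD8 alpha-beta members with and without an Itgae UMI, with a line for each mouse and exact Poisson 95% intervals. Ccr7, S1pr1, Klf2, Lef1, Tcf7 and Dapl1 are lower, and Ccl5, Gzma, Gzmb, Cd8a, Jaml and Ikzf2 higher, with Itgae in both mice.

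Of 13 tested recirculation genes 9 were called lower with Itgae by the blocked edgeR test and none higher (Ccr7, S1pr1, Klf2, Lef1, Tcf7, Satb1, Bach2, Dapl1 and Il6ra), with a median log2 difference of -1.97 beside 0.01 over all genes tested. All 9 stayed called without the mixed barcodes. There the class-only edgeR test also called Ccr7 (-4.82, edgeR adjusted p = 0.0016) and Klf2 (-3.62, edgeR adjusted p = 0.0037) beside S1pr1, Lef1 and Ccl5. With thinned cells 3 of the 9 (Klf2, Lef1 and Satb1) stayed called. The counts are small. S1pr1 had 56 and 12 UMIs in the members without Itgae, of which a single barcode gave 32.1% and 50.0%.

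Ccl5 was at 11512 and 16802 CPM with Itgae and 5392 and 7011 without. Gzma was at 4917 and 10166 with and 1370 and 3756 without (log2 difference 1.47 ± 0.09, blocked edgeR adjusted p = 0.0015), and Gzmb at 614 and 890 against 314 and 348 (0.96 ± 0.14). Gzma, Gzmb and Nkg7 were called of 12 tested cytotoxic genes. Ikzf2 (1.00 ± 0.22) and Cd200r1 (2.04 ± 0.46), an inhibitory receptor gene, were called higher, as was Jaml, whose product binds an epithelial adhesion molecule. Ikzf2, Jaml and Nkg7 lost the call without the mixed barcodes and also with thinned cells, and Cd200r1 lost it with thinned cells. Members with Itgae also held more RNA of other cells in part. Their summed acinar level was 4454 and 29.6 against 990 and 13.9 without Itgae, and their epithelial level 512 and 179 against 71.5 and 104. Macrophage markers went the other way, 328 and 443 against 432 and 1287. By the named-gene rule S100a9, S100a8, Fabp2 and Fabp1 led the higher side and Fn1, Lef1 and Apoe the lower. In the Itgae-positive members 1 barcode gave 91.8% and 100% of the S100a9 UMIs and 98.9% and 100% of the S100a8 UMIs in the 2 mice. Without Itgae 1 barcode gave 97.1% and 100% of the Fn1 UMIs and 77.6% and 97.4% of the Apoe UMIs. Fabp2 and Fabp1 were spread over 69 and 60 Itgae-positive members of mouse 1, where the top barcode gave 31.1% and 24.1%.

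At the level of cells, 43 members of mouse 1 (7.43%) and 37 of mouse 2 (11.9%) held a UMI of Ccr7, S1pr1 or Lef1. These genes were called lower with Itgae in the same members, and Ccl5 and Gzma were called higher. The shares of cells thus describe the same counts again and are no separate evidence. They made up 27 of 100 members without Itgae and 16 of 479 with it in mouse 1 (27.0% against 3.34%), and 10 of 41 and 27 of 271 in mouse 2 (24.4% against 9.96%). Ccl5 was seen in 58.1% of the members with such a UMI and 99.4% of those without in mouse 1, and in 86.5% and 98.2% in mouse 2. Gzma was seen in 46.5% and 86.2% in mouse 1, and in 51.4% and 80.7% in mouse 2. The shares were lower although the members with such a UMI were deeper, at medians of 4969 and 3875 UMIs against 3291 and 2663. With thinned cells Ccl5 was seen in 5 of 23 (21.7%) against 95.5% in mouse 1, and in 8 of 16 (50.0%) against 96.2% in mouse 2. Both Ccl5 and Gzma were seen in 82.0% and 76.3% of all members.

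The 2 mice were compared without a test, since each gave 1 library. Of 6188 genes with at least 20 UMIs in the members of each mouse, 414 were over 2-fold higher in mouse 2 and 52 over 2-fold higher in mouse 1, and the median gene was 1.29-fold higher in mouse 2. These are ratios of CPM without TMM scaling. The members' sums held 3240655 UMIs in mouse 1 and 1123683 in mouse 2, so 20 UMIs is a higher CPM in mouse 2. Genes of low CPM in mouse 1 therefore passed the minimum only where they were higher in mouse 2. This raises the number of genes higher in mouse 2, the median and the list medians below, which use the same minimum. The size of this effect was not tested. Immunoglobulin transcripts took 22.6% of the members' UMIs in mouse 1 and 7.37% in mouse 2, and their part in the shift was not tested. The list medians of natural-type and NK-type genes stood above that median, while Cd160 (1.21) and Cd244 (1.28), which are in both lists, lay below it. Ikzf2 was at 68.5 (exact Poisson 95% interval 59.8 to 78.1) CPM in members of mouse 1 and 292 (261 to 325) in mouse 2, and was seen in 19.2% and 48.4% of them. Its ratio was 4.26, against 1.63 in the gamma-delta gate. Klrd1, the CD94 gene, was at 147 and 561 (ratio 3.81, against 1.75). Kit, a stem-cell factor receptor gene, was at 7.10 and 49.8. Over lists, the median ratio was 2.19 for 6 NK-type receptor genes, 2.11 for 7 inhibitory and costimulatory genes and 1.97 for 8 natural-type genes, while in the gamma-delta gate these lists had medians of 1.22, 1.12 and 1.31. It was 1.15 for the 15 signalling and surface genes and 1.24 for them in the gamma-delta gate. Immediate-early and stress genes had a median of 0.82 in members and 0.71 in the gamma-delta gate.

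**Figure D4:**
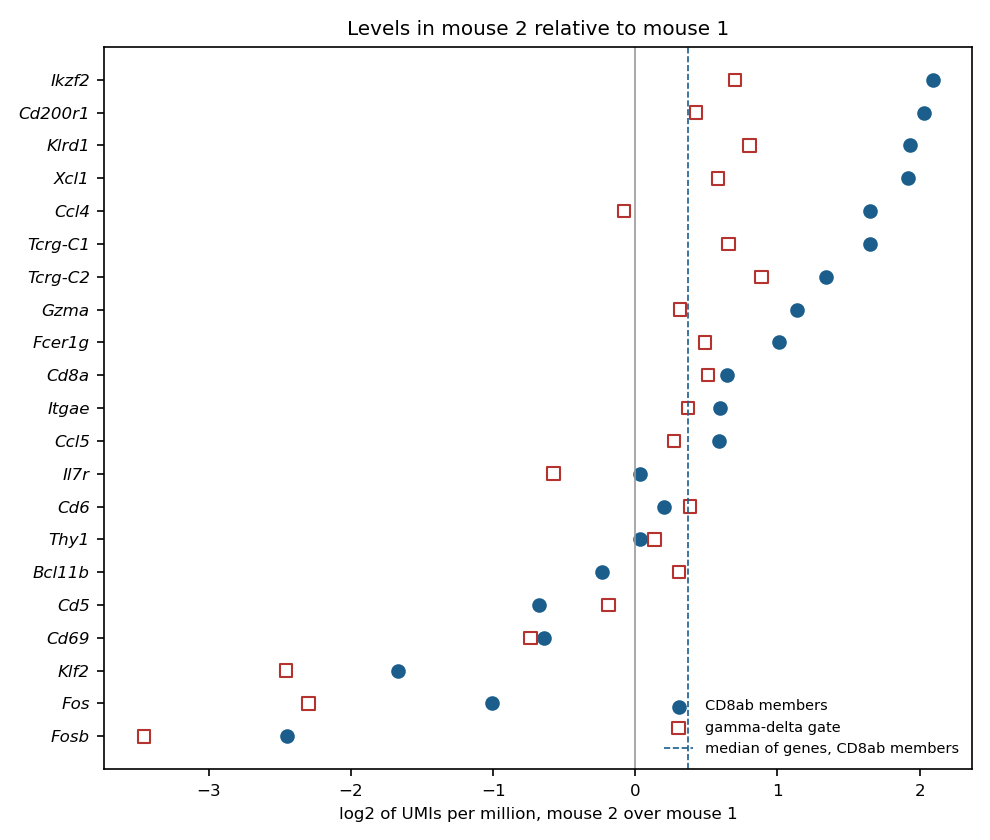
Log2 ratio of CPM in mouse 2 over mouse 1 for 21 listed genes in the CD8 alpha-beta members (circles) and the gamma-delta gate (squares). The solid line marks equal levels and the dashed line the median of 6188 genes in the members. Ikzf2, Cd200r1, Klrd1 and Xcl1 lie farthest to the right in the members, and Fosb farthest to the left. For Xcl1 a single barcode gave 42.8% of the UMIs in mouse 2.

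Among the genes with the largest ratios, H2-Eb1, an MHC class II gene, was 9.56-fold higher in members of mouse 1, and Cela1 (an acinar gene, with 56.6% of its UMIs in mouse 1 from 1 barcode), Cd79a (a B-cell gene), Epcam, Fosb and Mzb1 (a plasma-cell gene) followed. In mouse 2, S100a9 was 13.4-fold higher with all 283 UMIs from 1 barcode, S100a8 followed likewise, and Kit (7.02-fold), Slc15a2, Irf8 and Ccl3 came next. For Ccl3, a chemokine gene, a single barcode gave 51.4% of the UMIs in mouse 2. Kit was spread over 33 barcodes in mouse 2 and 15 in mouse 1.

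Transcripts of Trbv and Trav segments were seen in few members. A Trbv segment was seen in 99 members of mouse 1 (17.1%) and 38 of mouse 2 (12.2%), and a Trav segment in 13.8% and 7.69%. Exactly 1 Trbv segment was seen in 96 and 37 members, and these are compared. In mouse 1, Trbv2 was the segment in 49 of 96 members (51.0%, exact binomial interval 40.6 to 61.4). In mouse 2 it was the segment in 3 of 37 (8.11%, 1.70 to 21.9). In other gates of the same libraries it was the segment in 14.7% of 75 gamma-delta gate barcodes and 17.9% of 117 barcodes of the gate with none of Trdc, Cd4 and Cd8b1 in mouse 1, and in 5.50% of 109 and 3.05% of 197 in mouse 2. In the CD4 gate it was seen in 3 of 17 and 2 of 11. These shares are described and were not tested, since each mouse is 1 animal.

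Trbv16 was the leading segment of members in mouse 2, in 9 of 37 (24.3%, 11.8 to 41.2), and was seen in none of the 96 in mouse 1. Trbv3 and Trbv20 followed with 6 members each. In mouse 1, Trbv15 with 12 and Trbv13-1 with 11 members came after Trbv2. On the alpha side Trav16 was the segment in 38 of 76 members (50.0%, interval 38.3 to 61.7) in mouse 1. In mouse 2 it was the segment in 5 of 22 (22.7%, interval 7.82 to 45.4). The gamma-delta gate held Trav16 in 23.3% of 73 and 17.6% of 142 barcodes with a single Trav segment. Of 13 members of mouse 1 with exactly 1 segment of each chain, 11 held Trbv2 with Trav16. The 3 such members of mouse 2 held 3 different pairs. Of the 49 Trbv2 members of mouse 1, 44 had an Itgae UMI.

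**Figure D5:**
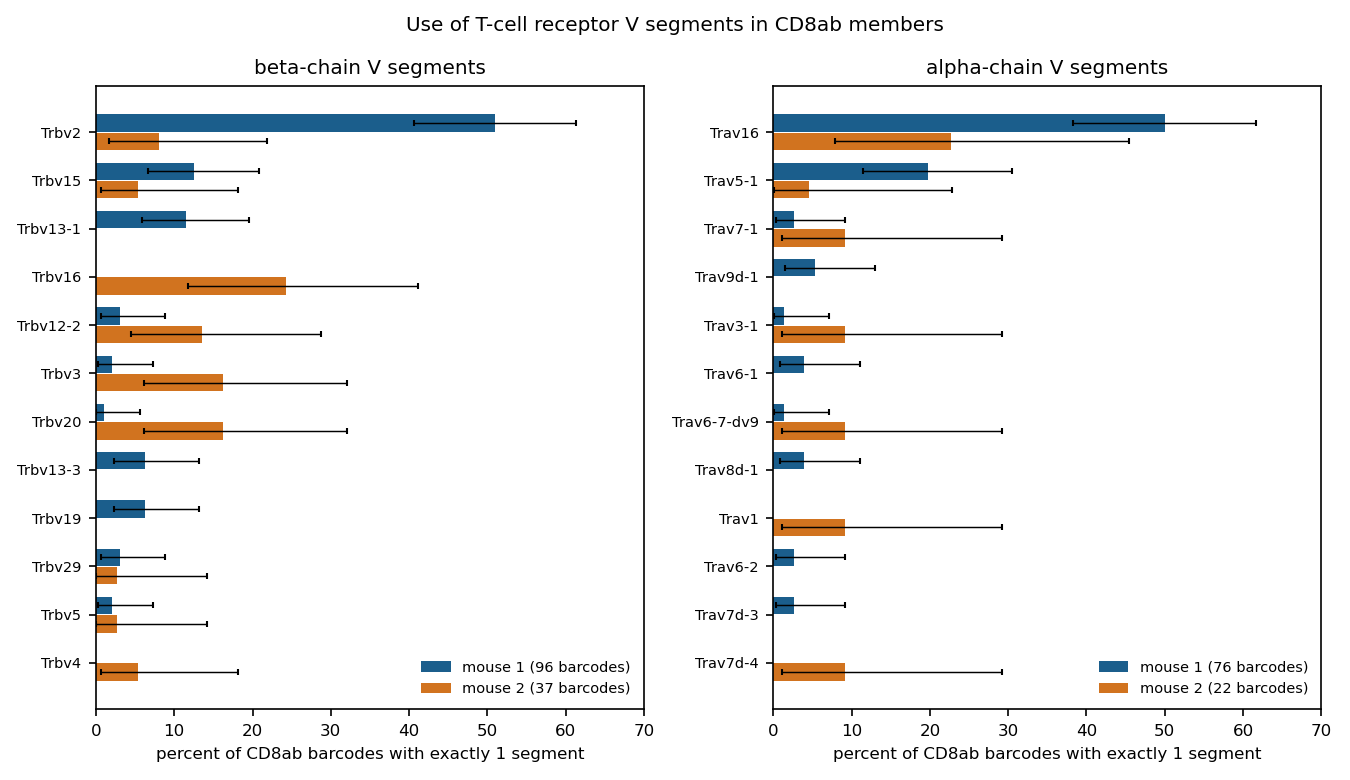
Percent of CD8 alpha-beta members with each beta-chain (left) and alpha-chain (right) V segment, among members with exactly 1 such segment, for the 12 most counted segments in mouse 1 (upper bars) and mouse 2 (lower bars). Error bars are exact binomial 95% intervals and an absent bar means that the segment was not seen. Trbv2 reached 51.0% in mouse 1 and 8.11% in mouse 2.

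Gamma-chain V segments were seen in 348 members of mouse 1 (60.1%) and 192 of mouse 2 (61.5%). The shares were 79.5% and 71.0% in the gamma-delta gate, 49.1% and 56.5% in the gate with none of Trdc, Cd4 and Cd8b1, 17.2% and 27.0% in the CD4 gate, and 0.880% and 0.782% in the kept barcodes without CD3. Trgv2 made up 271 of the 305 members with exactly 1 such segment in mouse 1 and 159 of 172 in mouse 2. A Trdv segment was seen in 1 member of each mouse. In the gamma-delta gate it was seen in 313 of 1480 barcodes (21.1%) in mouse 1 and 487 of 3093 (15.7%) in mouse 2. The gates use Trdc of the same chain, so they fix part of this difference. In the gate with none of Trdc, Cd4 and Cd8b1 the shares were 2.42% and 3.58%.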

How the data were processed

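Live cells of digested proximal small intestine were profiled by 10x 3′ single-cell RNA-seq. The authors aligned and counted reads with Cell Ranger 6.1.2 on mm10 and deposited raw UMI counts per gene and barcode. The annotation release is not given in the sources used here. From the deposited counts, barcodes with over 100 genes, over 400 UMIs, under 5% mitochondrial and under 10% haemoglobin UMIs were kept (7941 in mouse 1 with 81060645 UMIs, 6957 in mouse 2 with 35474260). The members and gene lists were chosen with earlier results of these data known. The 9 genes of the rule were described and not tested.

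For each class the raw counts of a mouse were added up over its barcodes, and these sums were tested with edgeR 4.0.16 (TMM, low-count filter, quasi-likelihood, Benjamini-Hochberg adjustment over all genes) in R 4.3.3, with class alone and with mouse as a replicate block. Same-numbered sums come from the same animal and library. Their deviations correlated at 0.614 for the first comparison, 0.628 against the gamma-delta gate, 0.397 against the CD4 gate and 0.388 for the Itgae split. Nothing beyond the mouse number describes the 2 replicates. Class-only p-values cover the spread between 2 mice. Those of the blocked test cover only what is left after the difference shared by the classes of a mouse is taken out. DESeq2 1.42.0 was an alternative. Code was tested on simulated data. Scrublet called 1 and 0 barcodes and did not work, so an alternative left out the 8% highest doublet scores (46 and 17 members). Thinned values use 1000 UMIs per cell. Intervals are exact Poisson or binomial at 95%.

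Some genes of the lists are not reported here and were left out of the list counts. Named genes were those of the lists and, among called genes with the same direction in both mice and at least 20 UMIs in the higher class of each mouse, the 10 highest and 10 lowest log2 differences for the first comparison and 6 each for the others. Between mice these were the 6 largest ratios each way. Gate, immunoglobulin, receptor V and J, mitochondrial and predicted genes were left out. V segment sequences are from GENCODE vM21 (GRCm38).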

Additional observations from a re-analysis of the deposited data

Results flagged for a closer look

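Cd8b1 was also seen in kept barcodes without any CD3 UMI, which enter no comparison. A UMI was held by 59 of 3976 such barcodes in mouse 1 (1.48%, exact binomial interval 1.13 to 1.91) and 43 of 1406 in mouse 2 (3.06%, 2.22 to 4.10), against 16.7% and 8.12% of kept barcodes with a CD3 UMI. These barcodes are deeper, at medians of 8513.5 and 8008 UMIs. Among barcodes that also lacked Ptprc the share was 0.565% (0.271 to 1.04) of 1771 in mouse 1 and 0 of 504 in mouse 2, which allows up to 0.729%. The source of this RNA was not tested.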

How the results depend on the processing

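Counts of called genes depended on the fit. For the first comparison (1 called) they were 91 with DESeq2, 30 without the low-count filter, 771 with the replicate block, 32 with thinned cells and 77 without barcodes holding 2 or more UMIs of other cells' markers. For the gamma-delta gate (15) they were 126, 207, 558, 97 and 59, with 27 without the highest doublet scores and 59 when only these classes were fitted. For the CD4 gate (1) they were 107, 155, 533, 32 and 2, with 6 without doublet scores, 2 with at least 2 Cd8b1 UMIs and 13 with only these classes. For the Itgae split (3) they were 6, 137, 184, 1 and 5, with 1 at 10% mitochondrial UMIs and 19 without doublet scores. Removing barcodes with other cells' markers took 96.4% of members in mouse 1 and 19.2% in mouse 2. Alternatives chosen after seeing the data gave, in the same order of comparisons, 29, 138, 57 and 15 without mixed barcodes, and 1137, 991, 424 and 98 with the block added. Thinned cells with the block gave 510, 529, 180 and 64, and sums without immunoglobulin genes with the block 672, 642, 543 and 162. Leaving out barcodes with over 20% immunoglobulin UMIs gave 100, 16 and 14 for the last 3 comparisons. Cd6 in the first comparison was called under every alternative with a test. Single genes turned in sign as follows, and the cause was not tested. In the first comparison Ltb was -0.084 without other cells' markers, Ccr10 0.30 without immunoglobulin-rich barcodes and Tnf -0.18 without mouse 1 (2.52 without mouse 2). Against the gamma-delta gate Fosb was -0.11 with thinned cells, -0.42 without other cells' markers and -0.50 with thinned cells and the block, and Tnf -0.29 without mouse 1 (2.69 without mouse 2). Against the CD4 gate Lat2 was 0.18 and Satb1 0.11 without other cells' markers, Lat2 0.34 and Ccr10 0.23 without immunoglobulin-rich barcodes, and Fn1 -2.50 without mixed barcodes, with or without the block. In the Itgae split Apoe was 0.046 without mixed barcodes and with the block. Leaving out 1 mouse leaves 1 sum per class, so these values carry no test.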

Other observations

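The methionine cycle list covers the synthesis and recycling of the methyl donor S-adenosylmethionine. None of its tested genes was called in any of the 4 comparisons by the blocked edgeR test. The Itgae split tested only 8 of the 13 genes, and Ahcy was among those left out. In simulated data the blocked test recovered a minority of 2-fold changes in each comparison, and most 4-fold changes. In the Itgae split these shares were 19.4% and 91.8%. The lack of calls therefore does not exclude changes of about 2-fold. Of 12 genes tested in each, the median log2 difference was 0.20 between members and other CD3 barcodes and 0.27 between members and the gamma-delta gate. Mat2a, which makes S-adenosylmethionine, was at 70.4 and 95.2 CPM in members and 63.4 and 89.6 in the gamma-delta gate.

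Among 20 immediate-early and stress genes, Fosb (log2 difference 0.72) and Hspa1b (1.12) were called higher than in the gamma-delta gate by the blocked edgeR test. Fosb lost its call without the mixed barcodes and with thinned cells, and Hspa1b kept it in both. Against the CD4 gate Fosb, Jund, Hspa1a and Hspa1b were called lower by the same edgeR test, and none of these calls stayed without the mixed barcodes. Cd69, an early activation and retention gene, was seen in 40.9% and 20.2% of members and in 39.5% and 24.5% of the deeper kept barcodes without CD3, so its share in members was not above that background in mouse 2. Its level was 173 and 111 CPM in members and 141 and 84.2 in the gamma-delta gate.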
